A study of Mus musculus with 6 samples.

Results

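Antisense intronic lncRNAs are long non-coding transcripts that lie within an intron of another gene, the host, and are read from the opposite strand. In the deposited lncRNA table of RAW264.7 cells, a mouse macrophage line, 866 of 24817 transcripts (3.49%) carried the table's label for this relation, and all 866 are described here as members of the class. RNA was sequenced from 6 libraries, 3 per group, and both groups received lipopolysaccharide (LPS), a bacterial product that activates macrophages, for 24 h. The cells of the LPS_ES_PMMA group were then kept in extract of bone cement (polymethylmethacrylate, PMMA) that carried enoxaparin sodium (ES), a low-molecular-weight heparin, and those of the LPS_PMMA group in extract of plain cement. The comparison addresses which transcripts differ with the drug in the cement. The sample titles and treatment labels name the second group LPS_PMMA, whereas the sample descriptions and the columns of the table name it LPS only. Both groups are 1 cell line, no group without LPS or without cement extract was analysed here, and nothing in the labels says that the libraries came from separate cultures, so p-values reflect only how far these libraries scatter, and that scatter may be technical.

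A transcript on the strand opposite its host can act on the host through its own transcription, through base pairing with the unspliced host RNA, or not at all, and some annotated ones are inserted copies of other genes. In macrophages, LPS switches on inflammatory genes and, through type I interferon, a large antiviral programme. Antisense and intronic lncRNAs are usually low in abundance, so that a small number of reads decides many of the values below.

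The class fell in 643 host genes, of which 613 were protein-coding, and these held 815 of the 866 members. A single member was found in 523 hosts and more than 1 in 120. Host genes were long, with a median length of 75.9 kb, and 865 members lay wholly inside the span of their host. Of the members, 671 carried NONCODE identifiers and 195 Ensembl identifiers, and they were spread over 20 chromosomes. Their length ran from 202 to 16614 nucleotides, with a median of 784 against 1220 for all transcripts of the table. A single exon was listed for 45.2% of members, against 65.9% of all annotated transcripts and 88.5% of intronic transcripts on the host's own strand. The table's strand column gives the strand of the host: all 195 Ensembl members lie on the opposite strand in GENCODE M21, an annotation of the mouse build GRCm38 (mm10).

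The Ensembl members were of several kinds: 63 were annotated as antisense, 60 as processed pseudogenes (inserted copies of spliced messenger RNAs), 33 as transcripts to be experimentally verified, 21 as lincRNAs and 11 as miscellaneous RNAs. Reads of a copied sequence cannot be assigned with certainty, and the sources used here do not give how the authors' counting treated such reads. Every 31-base stretch of the 195 transcripts was therefore looked up, on both strands, in all other genes of the annotation. At least 50% of the bases lay in shared stretches for 32 of the 195, and 27 of these 32 were processed pseudogenes. The median share was 34.8% among processed pseudogenes, 0.7% among antisense transcripts and 4.1% among all 195.

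The sequences of 3 Ensembl members are given because the results below turn on where their reads can come from. They were read from GENCODE M21 transcripts. Gm14846, a processed pseudogene at chrX:74278654-74278869 inside Dnase1l1, is shown whole (216 bases), and none of its 31-base stretches recurred within it or in another gene. Gm6264, an unprocessed pseudogene at chr1:85160863-85194260 inside Gm2619, is shown from base 1 to 300 of 1217, with capitals for bases in stretches that another gene also holds. Gm44706, an antisense transcript at chr7:79740678-79742016 inside Pex11a, is shown from base 1 to 300 of 815, with capitals for bases in stretches that recur within the transcript itself.
Gm14846: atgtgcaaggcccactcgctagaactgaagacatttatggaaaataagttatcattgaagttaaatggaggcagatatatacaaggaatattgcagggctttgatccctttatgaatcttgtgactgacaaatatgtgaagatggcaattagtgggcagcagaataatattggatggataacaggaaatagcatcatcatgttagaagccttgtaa
Gm6264: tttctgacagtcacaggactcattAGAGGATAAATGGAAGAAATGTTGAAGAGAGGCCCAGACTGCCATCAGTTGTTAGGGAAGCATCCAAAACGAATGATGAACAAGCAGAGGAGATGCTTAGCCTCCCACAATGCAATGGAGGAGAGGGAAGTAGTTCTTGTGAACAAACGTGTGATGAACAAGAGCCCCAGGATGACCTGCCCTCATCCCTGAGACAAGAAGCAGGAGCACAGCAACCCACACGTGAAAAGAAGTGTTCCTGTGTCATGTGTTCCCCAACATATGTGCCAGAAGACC
Gm44706: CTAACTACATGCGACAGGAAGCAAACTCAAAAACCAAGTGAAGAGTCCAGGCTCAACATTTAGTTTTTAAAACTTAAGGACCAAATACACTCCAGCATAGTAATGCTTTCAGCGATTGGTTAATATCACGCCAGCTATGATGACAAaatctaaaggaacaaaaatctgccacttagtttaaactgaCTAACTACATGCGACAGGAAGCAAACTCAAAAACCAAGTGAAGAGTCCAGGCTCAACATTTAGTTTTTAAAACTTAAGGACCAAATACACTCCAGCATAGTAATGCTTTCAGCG
In Gm6264, 276 of the 300 bases shown and 91.6% of the whole transcript lay in shared stretches, and 50% of its stretches matched Sp140, which encodes an interferon-induced nuclear body protein. In Gm44706, 260 of the 300 bases shown and 35.8% of the whole lay in stretches that recur within it, and 0% were shared with another gene.

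The members were as abundant as the rest of the table. Abundance is given in FPKM, the authors' fragments per kilobase of transcript and per 1e+06 reads, averaged over the 6 libraries. The median was 1.15 for members and 1.07 for all transcripts, with a range of 0.021 to 128 for members. An FPKM of at least 1 was reached by 462 members (53.3%, against 51.4% of all transcripts) and of at least 10 by 65 members (7.51%, against 8.61%). Reads were present in all 6 libraries for 395 members (45.6%, against 51.1%). In total, 81458 reads fell on members, with a median of 17 per member and a maximum of 5897, and the 10 members with most reads held 31.4% of them.

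The table totals were 3261653, 1123551 and 3070657 reads in LPS_ES_PMMA libraries 1 to 3 and 3697638, 3249485 and 2877523 in LPS_PMMA libraries 1 to 3, so LPS_ES_PMMA library 2 was the shallowest. Levels below are counts per 1e+06 reads (CPM) of totals scaled by the trimmed mean of M-values (TMM), whose factors ranged from 0.559 to 1.82. Members took 0.572%, 0.789% and 0.444% of the reads in LPS_ES_PMMA and 0.325%, 0.422% and 0.508% in LPS_PMMA. After TMM scaling their summed level was 4527, 4490 and 4589 CPM in LPS_ES_PMMA and 5901, 5397 and 5277 CPM in LPS_PMMA. The order of the groups for the summed level therefore depended on the scaling, with unscaled shares that overlapped between the groups and scaled levels that were lower in all LPS_ES_PMMA libraries. A count of 3 reads in 1 library equals 0.729 to 1.52 CPM, which is the limit that 0 reads allow there, for counting error only.

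Strand and position bear on what the reads of a member represent. The strand setting of the authors' counting is not stated, and without it, reads from an intron of the host and from a transcript antisense to it cannot be told apart. The listed positions of the annotated members are those of mm10: 194 of the 195 Ensembl members sit where GENCODE M21 places them. The 2305 transcripts that the authors assembled from the reads, at 2034 loci, did not sit on mm10 genes in the same way. Both ends of 368 of these loci met a start and an end of annotated transcripts only after a shift. Of these, 216 had support from neighbouring loci, and they formed 44 stretches of the genome with a common shift of 14.2 to 726.6 kb. In 0 of the 44 stretches was the shift 0. A transcript that met both ends without a shift could have been listed under its annotated name instead of as assembled. The absence of unshifted matches may thus follow from how these transcripts were chosen, which was not tested. These loci therefore cannot show whether other parts of the genome were unshifted. In addition, 2 transcripts were placed on a contig name that GENCODE M21 does not have.

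The local shift could be read for 429 of the 866 members, of which 307 lay inside 1 of the stretches. For 78 others, single ends of at least 4 assembled loci within 5 Mb gave 1 common shift. For the remaining 44, the shift of a stretch up to 2 Mb away was taken. Among members described below, NONMMUT115043.1, NONMMUT115042.1, NONMMUT151196.1, NONMMUT147448.1, NONMMUT049396.2 and NONMMUT134645.1 lay outside the stretches, so their shifts are less direct. Each of the 429 was moved by its shift to ask what lies there in mm10. At the listed positions, 0 of the 429 overlapped a protein-coding exon on their own strand, which the label that chose the members already implies. At the shifted positions, 38 of 179 members with a mean FPKM under 1 did so (21.2%), 75 of 212 members from 1 to 10 (35.4%) and 31 of 38 members of 10 or more (81.6%). A shift of the same size in the other direction gave 17.9%, 13.7% and 13.2%. At the shifted positions the share was thus above that of the opposite shift by the most in the abundant class; this difference was not tested. Whether their reads come from the messenger RNAs of those genes was not tested, and the gene found at the shifted position is given below for the members described that have a readable shift.

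**Figure D1:**
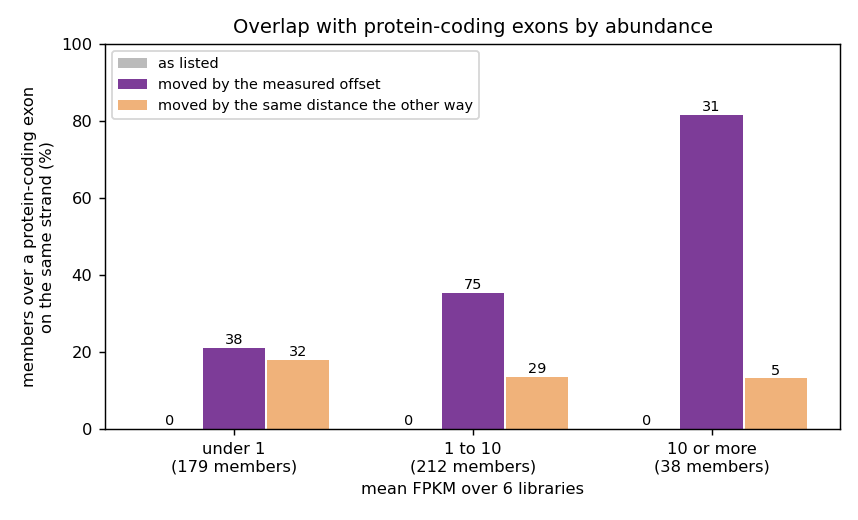
Share of the 429 members with a readable shift that overlap a protein-coding exon on their own strand (y axis, percent), by mean FPKM class (x axis), for the listed position, the shifted position and a shift of the same size the other way; numbers above bars are members. The share at the shifted position is 21.2%, 35.4% and 81.6% from the lowest to the highest class, beside 17.9%, 13.7% and 13.2% for the opposite shift; the 0 at the listed positions follows from the label that chose the members.

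Among the 10 members with the highest mean FPKM, 2 fell with the drug-loaded cement and 8 did not pass the test. The test was the quasi-likelihood F-test of edgeR over all 8873 transcripts that passed its filter on low counts, with Benjamini-Hochberg adjustment and a threshold of 0.05. Of the 8873, 4.76% passed in either direction, and 2.58% passed and were lower in LPS_ES_PMMA. Whether the 10 differ from these shares was not tested. Gm14846, the pseudogene whose sequence is given above, lies in Dnase1l1, a gene of the DNase I family. It was at 15.3, 22.8 and 20.2 CPM in LPS_ES_PMMA and 16.7, 25.2 and 19.1 CPM in LPS_PMMA, and the groups overlapped (log2 fold change -0.07, SE 0.29). Gm44706 lies in Pex11a, which acts in the division of peroxisomes. It was at 51.5, 84.1 and 76.8 CPM against 87.5, 67.3 and 70.4 CPM, again with overlapping groups, and at the shifted position all 1339 bases of its span were exon of Zfp710, a zinc finger gene. Gm16072, a processed pseudogene in Ankrd29, was at 203, 151 and 225 CPM against 226, 231 and 182 CPM, and 65.0% of its bases lay in stretches shared with other genes, and 28.8% of its stretches matched Evi5.

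The other abundant members carried NONCODE identifiers. NONMMUT083850.1 lies in Ntn1, the gene of the guidance cue netrin-1, and at the shifted position over an exon of Pik3r5, a subunit of phosphoinositide 3-kinase gamma of white blood cells. Its level was 36.2 ± 9.59 CPM in LPS_ES_PMMA and 58.9 ± 4.28 CPM in LPS_PMMA (SD, n = 3 each), a log2 fold change of -0.70 that did not pass the edgeR test (adjusted p = 0.184). NONMMUT109983.1 lies in Ccm2l and, shifted, over an exon of Plagl2, a zinc finger transcription factor; it was at 56.3 ± 24.8 against 124 ± 25.4 CPM (edgeR adjusted p = 0.123). NONMMUT151196.1 lies in Art2a-ps and, shifted, over an exon of Lamtor1, which anchors the Ragulator complex at lysosomes; it was at 30.6 ± 6.04 against 55.6 ± 12.8 CPM (edgeR adjusted p = 0.134). In each of these 3 the scaled CPM of the groups did not overlap and LPS_ES_PMMA was the lower, as in 14.6% of all tested transcripts. This depended on the scaling: in FPKM the groups overlapped for NONMMUT083850.1 and NONMMUT109983.1, and with unscaled totals the log2 fold changes of NONMMUT083850.1 and NONMMUT151196.1 were 0.06 and 0.03. NONMMUT133949.1, in the phosphodiesterase gene Pde4a and, shifted, over an exon of the cell cycle inhibitor Cdkn2d, had overlapping groups at 33.9 ± 7.3 and 32.9 ± 3.87 CPM. NONMMUT079433.1, in Gm6606 with no readable shift, also overlapped, at 141 ± 26.3 and 171 ± 35.2 CPM.

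Of the 866 members, 247 (28.5%, against 35.8% of all transcripts) had enough reads to be tested, and 619 were not tested. In the edgeR test 15 of the 247 passed (6.07%), beside 4.76% of all transcripts tested. At an unadjusted p under 0.05 there were 53 members, among 1940 transcripts. Those that passed were 7 members higher in LPS_ES_PMMA (2.83%, beside 2.18% of all) and 8 lower (3.24%, beside 2.58% of all), so both shares were near those of the whole table. In a bulk culture, fewer cells with a transcript and less of it per cell cannot be told apart. The median log2 fold change of the 247 was 0.002, with quartiles of -0.46 and 0.45, and that of all transcripts tested was 0.027. With library totals unscaled, the median of all transcripts moved to 0.818 and that of the members to 0.798, and 7 members were higher and 2 lower, so that the balance of directions is relative to the scaling. The groups did not overlap in 41 tested members that were higher in LPS_ES_PMMA (16.6%, beside 16.2% of all) and in 41 that were lower (16.6%, beside 14.6% of all). For the neighbouring classes, 53 of 1602 tested intronic transcripts on the host's strand passed (3.31%) and 41 of 896 tested transcripts antisense to exons (4.58%); the differences between classes were not tested.

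**Figure D2:**
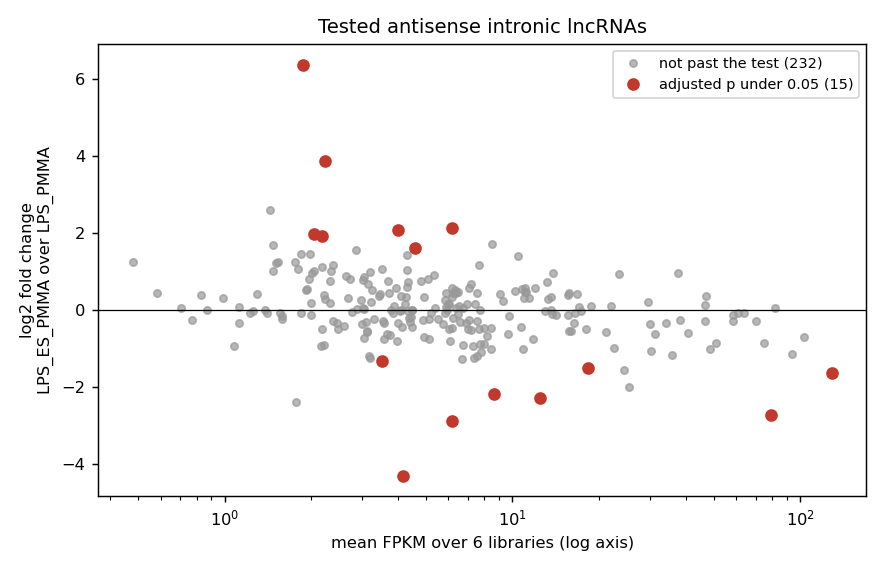
Log2 fold change of LPS_ES_PMMA over LPS_PMMA (y axis, edgeR) against mean FPKM (x axis, log scale) for the 247 tested members, with the 15 past an adjusted p of 0.05 in red. Members that passed and were higher all had a mean FPKM under 10, whereas those that passed and were lower included the most abundant member, at 128; the height of the topmost point, a transcript with 0 reads in LPS_PMMA, depends on the prior count.

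Calls were sensitive to the number of libraries. When each of the 6 libraries was left out in turn, the fits called 0 to 2 members higher and 2 to 3 lower, whichever library was left out. They shared 2 to 3 calls with the fit on 6 libraries, all of them falls, and 0 of the 7 members that rose passed in any of them. Only 2 of the 15 passed in all 6 of these fits and in all 11 other settings tried, NONMMUT034527.2 in Ifit1bl2 and NONMMUT056500.2 in Tbxas1. Outside them, Gm6264 passed in 1 of the 6 fits, and 11 members passed in 0. In the authors' deposited table, 25 members are listed as up (2.89%, beside 4.33% of all its transcripts) and 12 as down (1.39%, beside 2.49%). The transcripts listed there have an unadjusted p of up to 0.04998 in the authors' comparison and an absolute log2 fold change from 1.0, an unlike threshold. Another 375 transcripts with an unadjusted p under 0.05 and an absolute log2 fold change of at least 1.0 are not listed. These limits are therefore not the authors' whole rule. Of the 15 calls here, 14 are listed there in the same direction. NONMMUT002062.2 is not listed, though its deposited log2 fold change is also negative, at -0.89. The authors' q was above 0.05 for the listed members in Ppm1e (0.0686), Pear1 (0.157), Smpd3 (0.135) and Zfp563 (0.108).

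The largest fall was in a member inside Ifit1bl2, a gene of the IFIT family of interferon-induced antiviral proteins. NONMMUT034527.2, at chr19:34622239-34623494, had 3, 2 and 2 reads in the LPS_ES_PMMA libraries and 30, 43 and 48 in those of LPS_PMMA. Its level was 0.729, 1.01 and 0.674 CPM against 14.7, 16.9 and 17.3 CPM, so every LPS_PMMA library was far above every LPS_ES_PMMA library. The log2 fold change was -4.31 (SE 0.37, edgeR adjusted p = 0.00279), and it stayed between -4.43 and -4.24 when each library was left out in turn. The LPS_ES_PMMA levels were at or under the level of 3 reads in a library, so the size of the fall rests on few reads there. No shift could be read at this position.

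The abundant member inside Tbxas1, the gene of thromboxane A synthase, also fell in every fit. NONMMUT056500.2, at chr6:39063877-39066094, was at 41.5, 48.1 and 49.2 CPM in LPS_ES_PMMA and 347, 275 and 304 CPM in LPS_PMMA. The groups were well apart, at 46.3 ± 4.15 and 309 ± 36.1 CPM (SD, n = 3 each). The log2 fold change was -2.74 (SE 0.24, edgeR adjusted p = 0.00279), and it lay between -2.85 and -2.66 without each library in turn. At the shifted position, 23.1 kb away, 850 bases of its span lie over an exon of Parp12 on the same strand. Parp12 encodes an interferon-induced ADP-ribosyltransferase with antiviral activity, and whether the reads are those of Parp12 or of an antisense transcript of Tbxas1 was not tested. A second member that overlaps it, NONMMUT123623.1, had 4 to 14 reads per library and was not tested by edgeR.

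Another member that fell lies in Slfn2, a Schlafen gene that interferon induces and that keeps T cells quiescent. NONMMUT011098.2, at chr11:83066535-83067268, had 8, 2 and 7 reads with the drug-loaded cement and 47, 26 and 24 with plain cement. Its level was 1.94, 1.01 and 2.36 CPM against 23.1, 10.2 and 8.67 CPM, with no overlap but a wide spread in LPS_PMMA. The log2 fold change was -2.89 (SE 0.53, edgeR adjusted p = 0.0275), and the call was lost in each fit that left out a library (edgeR adjusted p from 0.0502 to 0.122). With unscaled totals the log2 fold change of NONMMUT011098.2 was -2.09 (edgeR adjusted p = 0.0531). At the shifted position it lies within Slfn4, a neighbouring Schlafen gene, but over no exon on its own strand. The other member in Slfn2, NONMMUT085559.1, had 6 reads in LPS_PMMA library 2 and 0 in the other libraries.

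Gm6264, the pseudogene printed above whose stretches match Sp140, also fell. It was at 3.4, 9.62 and 5.73 CPM in LPS_ES_PMMA and 27.5, 31.5 and 23.5 CPM in LPS_PMMA, with LPS_ES_PMMA library 2 the highest of its group. The log2 fold change was -2.18 (SE 0.40, edgeR adjusted p = 0.0265), and the call remained in 1 of the 6 fits without a library, that without LPS_ES_PMMA replicate 2. With unscaled totals it was -1.29 (edgeR adjusted p = 0.173), and with library totals implied by the FPKM values -1.75 (edgeR adjusted p = 0.0615). The call of Gm6264 thus depended on the scaling. In Gm6264, 91.6% of the bases are in 31-base stretches that other genes also hold, so some of its reads may be theirs. How many of its reads could be assigned to it alone was not tested.

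The most abundant member of all fell by less. NONMMUT115043.1 lies at chr4:62215683-62217564 inside the zinc finger gene Zfp37. It was at 180, 149 and 226 CPM in LPS_ES_PMMA and 643, 574 and 513 CPM in LPS_PMMA, and the groups were clearly apart. The log2 fold change was -1.64 (SE 0.26, edgeR adjusted p = 0.0186), and without each library in turn the edgeR adjusted p lay between 0.053 and 0.0975. With unscaled totals the log2 fold change of NONMMUT115043.1 was -0.85 (edgeR adjusted p = 0.135). With library totals implied by the FPKM values it was -1.2 (edgeR adjusted p = 0.0617). The call of NONMMUT115043.1 thus depended on the scaling. At the shifted position 966 bases of its span lie over an exon of Slc31a2, the gene of a copper transporter of internal membranes. A second member of Zfp37, NONMMUT115042.1, had 153, 96 and 143 reads against 225, 226 and 223 and a log2 fold change of -1.06 that did not pass (edgeR adjusted p = 0.0624), and it too lay over Slc31a2 when shifted.

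Smaller falls were measured in Ppm1e and Ankmy1. NONMMUT084131.1, in the phosphatase gene Ppm1e, was at 13.5 ± 0.779 against 38.8 ± 12 CPM (log2 fold change -1.52, edgeR adjusted p = 0.0316), and shifted it lay within Tex14 but over no exon on its own strand. NONMMUT002062.2, in Ankmy1, was at 10.2 ± 1.89 against 26.1 ± 6.76 CPM (log2 fold change -1.34), and with an edgeR adjusted p of 0.0492 it was the nearest of the 15 to the threshold. Each of these 2 members passed in only 4 of the 11 other settings and in 0 of the 6 fits without a library. With unscaled totals their log2 fold changes were -0.65 and -0.56 (edgeR adjusted p = 0.275 and 0.341).

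The members that rose were all of low or middle abundance. NONMMUT018740.2 lies at chr13:96626901-96628087 inside Col4a3bp, the gene of the ceramide transfer protein, and no shift could be read there. It was at 18.9, 12.7 and 14.5 CPM in LPS_ES_PMMA and 2.46, 3.54 and 4.33 CPM in LPS_PMMA, with every LPS_ES_PMMA library above every LPS_PMMA library. The log2 fold change was 2.13 (SE 0.35, edgeR adjusted p = 0.0201). NONMMUT067020.2 lies inside another sphingolipid gene, Smpd3, which encodes neutral sphingomyelinase 2. It had 24, 14 and 19 reads against 4, 4 and 4 (log2 fold change 1.93, edgeR adjusted p = 0.0333), and shifted it lay within Agrp but over no exon on its own strand.

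Another pair that rose lay over exons of other genes when shifted. NONMMUT029171.2, in the zinc finger gene Zfp563, had 25, 13 and 20 reads against 3, 3 and 5. Its level was 6.46 ± 0.349 against 1.49 ± 0.312 CPM (log2 fold change 2.08, edgeR adjusted p = 0.0285), and all 755 bases of its span were exon of Zfp870 at the shifted position. NONMMUT119120.1, in Gm35315, was at 10.4, 15.7 and 17.5 CPM against 3.44, 2.75 and 4.69 CPM (log2 fold change 1.97, edgeR adjusted p = 0.0289). At the shifted position, 2114 bases of its span were exon of Gm15446.

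Of the last 3 that rose, NONMMUT147448.1 lies in Pear1, the gene of a platelet and endothelial surface receptor. It had 38, 22 and 30 reads against 8, 9 and 7 (log2 fold change 1.60, edgeR adjusted p = 0.0428), and shifted it lay within Hdgf but over no exon on its own strand. NONMMUT049396.2 lies in Mtf1, the gene of the transcription factor that responds to metals. It had 21, 22 and 13 reads against 1, 2 and 0 (log2 fold change 3.88, SE 0.79, edgeR adjusted p = 0.0353), and the LPS_PMMA libraries were all at or under 3 reads. Shifted, it lay within Cdca8, and NONMMUT126510.1, the next member, within Gpr4, neither over an exon on its own strand. NONMMUT126510.1, in the neuronal splicing factor gene Nova2, had 12, 6 and 16 reads against 0, 0 and 0, which against 3 counts over the group is at least 9.19-fold higher (edgeR adjusted p = 0.0305). That last call did not outlast the addition of an overlapping transcript, as described below.

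**Figure D3:**
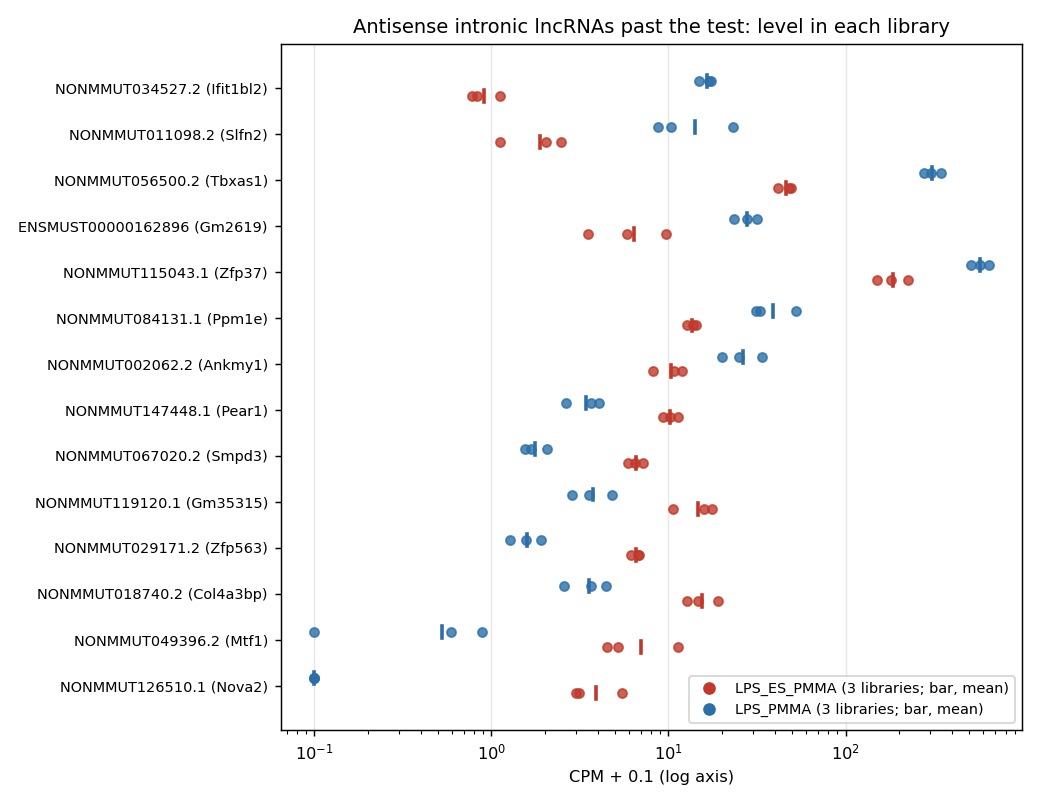
CPM plus 0.1 on a log axis for 14 of the 15 members that passed, 1 row per member with its host in parentheses, points for the 3 libraries of each group and bars for group means. The red LPS_ES_PMMA points lie left of the blue LPS_PMMA points in the upper rows, which hold the members that fell, and right of them in the lower 7, without overlap in any row.

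Some members had reads in just those libraries where an overlapping transcript had few or 0. On the same strand, 176 members (20.3%) overlapped another annotated transcript of the table. Among the 48 members with 0 reads in 1 library and at least 10 in another, 25 (52.1%) had such a partner; this count and the pairs below were chosen after the values were seen. NONMMUT126510.1 overlaps NONMMUT060117.2, a transcript antisense to exons, which had 0, 0 and 0 reads against 8, 10 and 10, the reverse of the member. The sum of the pair was 12, 6 and 16 against 8, 10 and 10 reads, with a log2 fold change of -0.01 (edgeR adjusted p = 0.992).

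The same pattern occurred between single libraries. NONMMUT000588.2, in 4933424G06Rik and, shifted, over an exon of Actr1b, had 418 reads in LPS_ES_PMMA library 1 and 0 in the other libraries, while NONMMUT000587.2, which overlaps it, had 8 in that library and 440 to 828 in the others. With all transcripts that overlap it, the sum was 464, 443 and 836 against 540, 615 and 582 reads (log2 fold change -0.21, edgeR adjusted p = 0.773). In Kcnq1, a potassium channel gene in an imprinted domain, NONMMUT127926.1 had 17 reads in LPS_ES_PMMA library 2 and 0 elsewhere. Its overlapping neighbour NONMMUT127925.1, also a member, had 0 reads in that library and 17 to 30 in the others. In Zhx2, NONMMUT023556.2 had 20 reads in LPS_ES_PMMA library 2 only, and NONMMUT097167.1, whose listed ends differ from it by 1 base, had 0 there and 28 to 50 in the others. How the authors' counting divided reads between such transcripts was not tested. Summing with overlapping transcripts left 14 of the 15 calls in place.

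**Figure D4:**
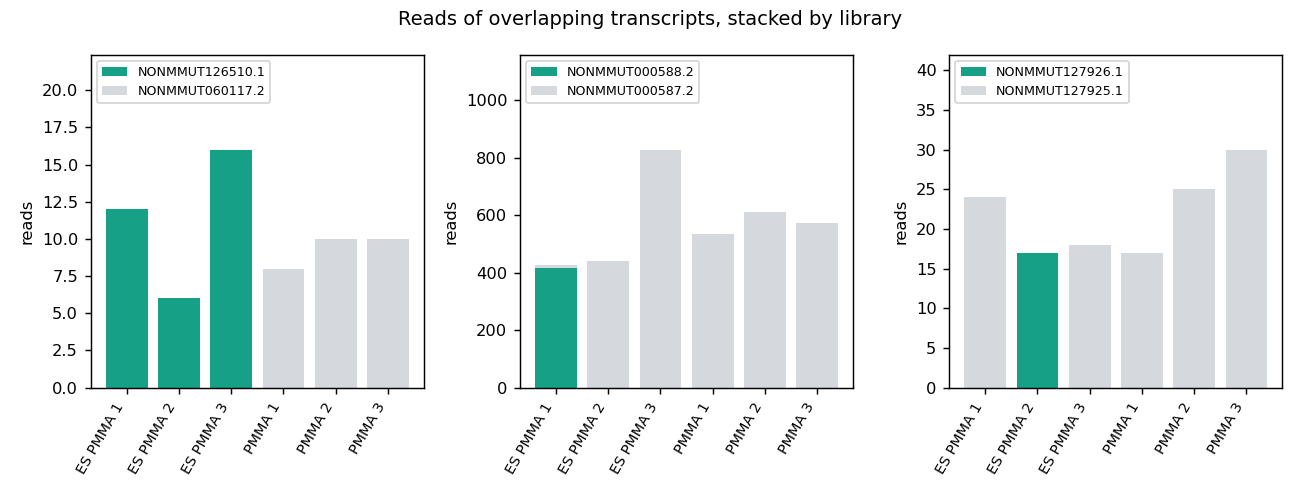
Reads (y axis) in each of the 6 libraries (x axis) for 3 members in green and an overlapping transcript in grey, stacked. The member holds the reads of the pair in some libraries and the partner in the others: in the left panel the green bars are the 3 LPS_ES_PMMA libraries, and in the middle and right panels a single LPS_ES_PMMA library each.

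Hosts with several members were examined as units. Gm20388, a gene model that spans 4435 kb of chromosome 8, held 29 members, of which 8 were tested and 0 passed in edgeR (3 had an unadjusted p under 0.05, and DESeq2 called 1). Their summed level was 405, 367 and 443 CPM in LPS_ES_PMMA and 645, 540 and 550 CPM in LPS_PMMA, without overlap. Per 1e+06 reads of the unscaled totals the groups overlapped, at 511, 644 and 428 against 355, 422 and 530, so the order depended on the scaling. Its most abundant member, NONMMUT067466.2, was at 70.1 ± 16.4 against 88.7 ± 16.8 CPM with overlapping groups. Gm7135, a pseudogene, held 13 members, of which 10 were tested and 0 passed in edgeR (1 with an unadjusted p under 0.05, and 0 called by DESeq2), and their sum was 66.5, 69.4 and 61.7 against 72.8, 72 and 84.8 CPM, without overlap. Here too the order depended on the scaling: per 1e+06 reads of the unscaled totals the groups overlapped, at 84, 122 and 59.6 against 40, 56.3 and 81.7. Fgfr2, the gene of a fibroblast growth factor receptor, held 8 members, of which 4 were tested and 0 passed in edgeR (0 with an unadjusted p under 0.05 and 0 called by DESeq2), at 29.1, 32.4 and 32.3 against 34.4, 26 and 26.7 CPM. The groups overlapped for Fgfr2 with scaled totals but not with unscaled ones, at 36.8, 57 and 31.3 against 18.9, 20.3 and 25.7 per 1e+06 reads. Gm37240 held 7, of which 2 were tested and 0 passed, and 4930402H24Rik and Kcnq1 held 6 each, of which 0 and 2 were tested and 0 passed. In these last 3 hosts 0 tested members had an unadjusted edgeR p under 0.05 and DESeq2 called 0.

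Gm35315, the host of NONMMUT119120.1, held 5 members and was looked at because 1 of them passed. Their summed level was 29.4, 35 and 34.4 CPM in LPS_ES_PMMA and 9.83, 8.26 and 13.7 CPM in LPS_PMMA, so that the groups were far apart. They were also apart with unscaled totals, at 37.1, 61.4 and 33.2 against 5.41, 6.46 and 13.2 per 1e+06 reads. Of the other 4 members, 2 were tested, and NONMMUT119116.1 and NONMMUT119117.1 had log2 fold changes of 1.25 and 1.26 that did not pass (edgeR adjusted p = 0.104 and 0.39). All 5 members lay within the 1 gene Gm15446 at the shifted position.

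**Figure D5:**
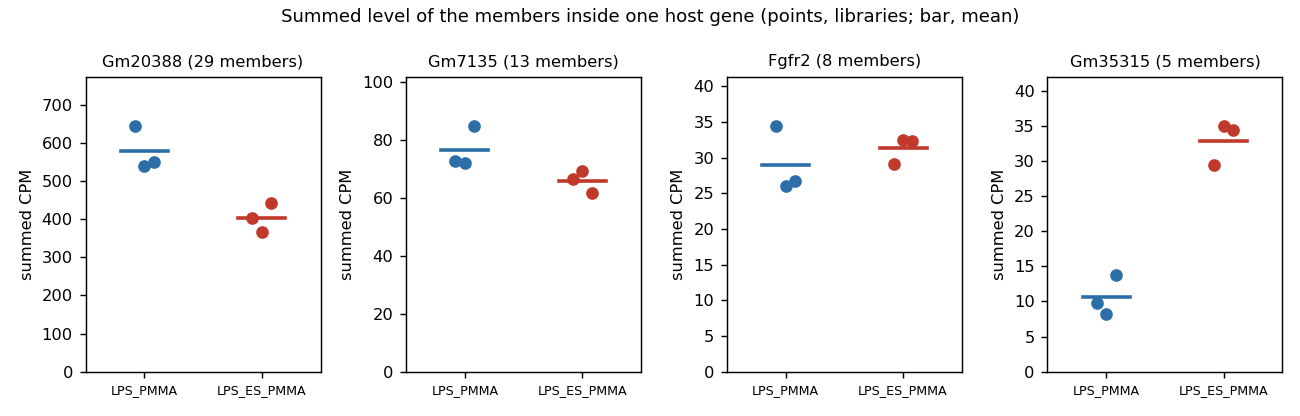
Summed TMM-scaled CPM of all members inside 1 host (y axis, from 0) for the 3 hosts with most members and for Gm35315, by group, with points for libraries and bars for means. The 29 members of Gm20388 sum to 367 to 443 CPM in LPS_ES_PMMA and 540 to 645 in LPS_PMMA, while those of Gm35315 sum to 29.4 to 35 and 8.26 to 13.7; with unscaled totals the groups of Gm20388 overlap and those of Gm35315 do not.

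Few hosts belonged to the gene groups examined for this cell type and treatment. Of 44 interferon and antiviral genes, 2 were hosts, Slfn2 and Oas2, with 4 members, of which 1 was tested and 1 was lower. The 2 members in Oas2, the gene of an enzyme that activates RNase L in antiviral defence, had at most 4 reads in any library. Of 40 inflammatory LPS and NF-kB genes and of 16 osteoclast genes, 0 were hosts. Of 26 macrophage identity genes, Dock2, which guides leukocyte migration, was the 1 host, and its member NONMMUT083505.1 had 1 read in each of the 6 libraries.

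Phagocytosis, endocytosis and cytoskeleton genes supplied 6 of 32 as hosts, with 8 members, of which 1 was tested and 0 passed in edgeR (0 with an unadjusted p under 0.05, and 0 called by DESeq2). That was NONMMUT109064.1 in Fmnl2, a formin that nucleates actin, with 17, 6 and 7 against 8, 7 and 10 reads and a log2 fold change of -0.08. The members in Vav2, Snx9 and Myo1e, NONMMUT106771.1, NONMMUT028038.2 and NONMMUT134645.1, had 0 to 13 reads per library and overlapping groups; shifted, the first lay within Wdr5 and the last still within Myo1e, over no exon on its own strand. Of 41 chromatin and transcription regulators, Kmt2c and Hdac4 were hosts, each with 1 untested member. Of 28 protein turnover and autophagy genes, Atg7, which drives the conjugation step of autophagosome formation, was the 1 host. Its member NONMMUT124307.1 was at 8.05 ± 3.43 against 12.6 ± 1.09 CPM and did not pass (log2 fold change -0.63, edgeR adjusted p = 0.351), and shifted it lay over an exon of Vgll4.

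Marker genes of cell types were nearly absent as hosts, so that the class says little about the identity of the cells. Of 10 macrophage markers, 0 were hosts, and the markers' own messenger RNAs were not analysed here. Of 20 neuronal markers, Dlg2 was a host, with 2 members at 0 to 1.35 CPM in sum in any library. Of 10 fibroblast and endothelial markers Flt1 was a host, with 1 member at 0 to 0.787 CPM, and of 8 lymphocyte markers Pax5, with 1 member at 0 to 2.46 CPM. Muscle markers and those of epithelium and liver gave 0 hosts.

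Most members were too low for any comparison. Reads were absent from all 3 LPS_PMMA libraries for 106 members and from all 3 LPS_ES_PMMA libraries for 37, and in both sets the median total was 4 reads. The matching shares over all transcripts were not computed, so the difference between 106 and 37 is no result about the class. In 0 members was a group without reads beside at least 10 in every library of the other. At such totals, a difference between the groups was not detectable at this depth.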

How the data were processed

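The deposited table lists 1 lncRNA transcript per line. Per the file headers, it holds unnormalized read counts and FPKM from the authors for each library. Its log2 fold changes, p-values and q-values are the authors' deposited comparison. The submitters' processing notes name the build mm10. The sources used here give no aligner, counter or strand setting. Per the labels' protocols, RNA came from an RNeasy purification, and a SMARTER mRNA kit made libraries from 1.3 µg. Groups came from the sample titles, and 0 value columns were left unused.

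Transcripts were kept by filterByExpr (minimum count 10, minimum total 15), scaled by TMM and compared with the quasi-likelihood F-test of edgeR 4.0.16 in R 4.3.3, unblocked, with p-values adjusted over the 8873 tested. The prior count was 0.125, and the SE was approximated by dividing the absolute fold change (log2) by the root of F. Replicates of a group differed by more than sampling noise (chi-square per degree of freedom 15.4 to 45.5), and the biological coefficient of variation was 0.415. Alternatives used DESeq2 1.42.0 and limma 3.58.1 with a pseudocount of 0.1 or 1. Shifts of assembled loci were searched up to 800000 bases, with both ends exactly on a start and an end of GENCODE M21 transcripts. Loci within 20 Mb supported each other where their shifts differed by at most 100 bases.

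Named members were those past the threshold, the 10 highest by mean FPKM, up to 4 per host list, the most abundant in each of the 5 hosts with most members, and any with 0 reads in 1 group and at least 10 in every library of the other. Of the members past the threshold, 1 is counted but not reported here by name. The members, the lists and the rule were chosen with earlier results of these data known.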

Additional observations from a re-analysis of the deposited data

How the results depend on the processing

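As reported, 7 members were higher and 8 lower, with a median log2 fold change of 0.002. Column totals without factors called 2 lower (median 0.798), library totals implied by FPKM 3 lower (median 0.433) and limma on log2(FPKM + 0.1) 3 lower (median 0.455). The median was 0.351 in limma with a pseudocount of 1. The DESeq2 Wald test called 4 higher and 10 lower. Those in Pear1, Smpd3 and Zfp563, which had passed as higher in edgeR, did not pass in it (DESeq2 Wald test adjusted p = 0.0754, 0.0814 and 0.0601). Without a filter 1 was higher (median 0.197), and with a mean FPKM of at least 1, 2 were higher. With the replicate block 0 members were higher and 2 lower, of 41 transcripts called. Deviations of same-numbered libraries had correlations of -0.0901 to -0.0185, beside -0.0707 to 0.106 for differently numbered ones. So few correlations cannot settle whether the numbers pair the samples. Leaving out 1 library gave 0 to 2 higher and 2 to 3 lower. The cause of these changes was not tested, except that leaving out a library reduces the samples. Summing overlapping transcripts was chosen after seeing the data. It turned NONMMUT126510.1 to -0.01; the signs of the other 14 calls held in all settings.

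Uncalled members chosen by the naming rule changed sign around 0 as follows, in log2 fold change. They include NONMMUT078295.1 and NONMMUT151321.1, the most abundant members in Gm7135 and Fgfr2, at -0.002 and 0.28 in the fit on 6 libraries. With column totals NONMMUT083850.1 was at 0.06, NONMMUT151196.1 at 0.03, NONMMUT124307.1 at 0.04, NONMMUT079433.1 at 0.62, Gm14846 (ENSMUST00000121868) at 0.74, Gm44706 (ENSMUST00000206822) at 0.78, Gm16072 (ENSMUST00000119574) at 0.64, NONMMUT109064.1 at 0.70, NONMMUT067466.2 at 0.45 and NONMMUT078295.1 at 0.73. With library totals implied by FPKM the last 7 were at 0.18 (NONMMUT079433.1), 0.32 (ENSMUST00000121868), 0.35 (ENSMUST00000206822), 0.30 (ENSMUST00000119574), 0.38 (NONMMUT109064.1), 0.11 (NONMMUT067466.2) and 0.35 (NONMMUT078295.1). In limma with pseudocounts of 0.1 and 1 they were at 0.16 and 0.16, 0.38 and 0.37, 0.34 and 0.33, 0.29 and 0.29, 0.31 and 0.27, 0.09 and 0.09, and 0.52 and 0.44. NONMMUT078295.1 was at 0.07 with the replicate block and 0.00 with a mean FPKM of at least 1. Without 1 library in turn, NONMMUT133949.1 ranged from -0.12 to 0.22, ENSMUST00000121868 from -0.22 to 0.08, ENSMUST00000206822 from -0.21 to 0.10, ENSMUST00000119574 from -0.30 to 0.02, NONMMUT109064.1 from -0.35 to 0.06, NONMMUT078295.1 from -0.28 to 0.29 and NONMMUT151321.1 from -0.13 to 0.45. Depth limits the 619 members not tested.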
